A study of Mus musculus with 17 samples.

Results

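The class I antigen presentation genes of the mouse diaphragm were examined as 10 genes named by symbol: the class Ia heavy chains H2-K1 and H2-D1, the light chain B2m, the peptide transporter and loading genes Tap1, Tap2 and Tapbp, the immunoproteasome subunits Psmb8, Psmb9 and Psmb10, and the ubiquitin-like modifier Ubd. All 10 were found among the 47643 symbols of the expression table, and all 10 were among the 13305 genes tested. Diaphragm muscle was taken from 17 male C57BL/6J mice aged 4 months, all of them injected into the peritoneal cavity every other day during the last week with either recombinant Fibcd1 or a mock solution of its albumin carrier. Fibcd1 is a membrane protein that releases its extracellular part, and rFibcd1 is that part made in insect cells. The 5 Control mice carried no tumor and were mock injected, the 5 Control + rFibcd1 mice carried no tumor and received the protein, the 3 LLC mice carried Lewis lung carcinoma grafts in both flanks and were mock injected, and the 4 LLC + rFibcd1 mice carried the grafts and received the protein. LLC is a transplantable mouse lung carcinoma cell line of C57BL/6 origin, grown here for about 3 weeks. The study asked how the tumor alters the muscle and whether rFibcd1 modifies that response. Every library was whole-muscle RNA, with the summed level of 12 myofiber transcripts such as Ckm and Acta1 far above that of any other cell type list.

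MHC class I molecules are heavy chains paired with the light chain B2m, and they carry short peptides of cytosolic proteins to the cell surface, where CD8 T cells read them. The peptides are cut by the proteasome, pumped into the endoplasmic reticulum by the Tap1 and Tap2 transporter, and loaded with the help of tapasin, the product of Tapbp. In immune cells, and in other cells exposed to interferon gamma, the catalytic subunits Psmb8, Psmb9 and Psmb10 take the places of Psmb5, Psmb6 and Psmb7. Ubd, also called Fat10, encodes a ubiquitin-like protein that sends its targets to the proteasome and that is induced by interferon gamma and tumor necrosis factor. Resting muscle fibers carry little class I protein.

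Of the 10 genes, 8 lie in or beside the major histocompatibility complex of chromosome 17 in GRCm38 (GENCODE annotation), with B2m on chromosome 2 and Psmb10 on chromosome 8 as the others. H2-K1 spans chr17:33996017-34000347 on the minus strand, H2-D1 chr17:35262730-35267499 on the plus strand, and Ubd chr17:37193892-37196095 on the plus strand. B2m spans chr2:122147686-122153083. Psmb9, Tap1, Psmb8 and Tap2 follow each other within chr17:34181987-34216321, where Psmb9 (minus strand) and Tap1 (plus strand) share 212 exon bases at their divergent starts in GENCODE, while their RefSeq starts leave 225 bases between them. RefSeq start sites matched 9 of the 10 genes, and 5 upstream windows are shown because they carry the motif matches found for the group or the shared start. Each reads 5′ to 3′ on the strand named. Capitals mark matches, on either strand, to the interferon gamma activated site TTCNNNGAA (Psmb8), the interferon regulatory factor motif GAAANNGAAA (B2m, the first match) and the NF-kB motif (H2-K1, B2m and Ubd).
H2-K1, 250 bases before the start, chr17:34000348-34000597, minus strand: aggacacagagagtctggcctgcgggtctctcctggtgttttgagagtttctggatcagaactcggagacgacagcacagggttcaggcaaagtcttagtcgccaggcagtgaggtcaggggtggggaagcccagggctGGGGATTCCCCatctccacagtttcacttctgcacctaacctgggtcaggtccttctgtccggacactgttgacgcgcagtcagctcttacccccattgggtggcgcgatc
B2m, 250 bases before the start, chr2:122147437-122147686, plus strand: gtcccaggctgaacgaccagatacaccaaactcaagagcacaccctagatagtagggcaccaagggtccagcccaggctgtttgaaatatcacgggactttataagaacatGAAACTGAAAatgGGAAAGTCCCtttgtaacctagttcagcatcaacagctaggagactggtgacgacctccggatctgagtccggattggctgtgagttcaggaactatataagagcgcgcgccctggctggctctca
Interval between the starts of Psmb9 and Tap1, chr17:34187331-34187555, plus strand: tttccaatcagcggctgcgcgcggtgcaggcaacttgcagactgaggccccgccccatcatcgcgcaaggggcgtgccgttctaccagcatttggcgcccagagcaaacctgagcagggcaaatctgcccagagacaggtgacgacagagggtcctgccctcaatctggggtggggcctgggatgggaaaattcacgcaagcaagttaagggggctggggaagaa
Psmb8, 250 bases before the start, chr17:34197945-34198194, plus strand: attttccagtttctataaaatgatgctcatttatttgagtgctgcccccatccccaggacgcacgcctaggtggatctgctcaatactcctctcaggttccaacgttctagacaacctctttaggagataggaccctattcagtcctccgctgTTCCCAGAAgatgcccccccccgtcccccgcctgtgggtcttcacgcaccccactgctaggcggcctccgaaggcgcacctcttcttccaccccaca
Ubd, 250 bases before the start, chr17:37193642-37193891, plus strand: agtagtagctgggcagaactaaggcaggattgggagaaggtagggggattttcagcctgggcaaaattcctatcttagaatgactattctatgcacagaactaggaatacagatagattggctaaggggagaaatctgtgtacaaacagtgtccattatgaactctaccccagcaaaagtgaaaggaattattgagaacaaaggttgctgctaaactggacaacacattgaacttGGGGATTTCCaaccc
The H2-D1 window holds the same run as H2-K1, GGGGATTCCCC, which is a pair of overlapping matches. In Ubd the NF-kB match lay from base -15 to -6 relative to the start, in Psmb8 the activated site lay from -97 to -89, and in B2m the 2 matches lay from -139 to -130 and from -126 to -117 without overlap. Among all 32851 RefSeq windows of 300 bases in GRCm38.p6 (250 before and 50 after a start), 8.46% held the NF-kB motif, 8.30% the activated site and 3.44% the interferon regulatory factor motif. The NF-kB motif was in 4 of the 9 windows matched, H2-K1, H2-D1, B2m and Ubd. CCAAT, or its reverse complement, was in 7 of 9 windows against 37.4% of all windows. The match of Psmb9 and that of Tap1 are the same 5 bases, counted in both windows. These are matches of letters and not sites shown to be bound.

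About 50789000 to 54587000 reads lay behind each library, as recovered from the steps between low values, and 11557 to 13413 genes reached a level of 1 TPM, a unit corrected for gene length and scaled to the same total in every library. Mitochondrially encoded transcripts took 41.3% to 50.4% of the TPM of a library, with 42.9% ± 1.53 (SD, n = 3) in LLC and 47.1% ± 1.09 (n = 5) in Control. Because the 10 genes could move with the makeup of the tissue, marker lists were read in each mouse. The summed TPM of 10 B cell markers ran from 2.85 to 110.9 in Control, 4.02 to 158.1 in Control + rFibcd1, 258.6 to 329.7 in LLC and 20.7 to 322.8 in LLC + rFibcd1, and no marker of the list was at 0 throughout a group.

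The class Ia heavy chains and B2m were the most abundant of the group. H2-K1 stood at 174.1, 206.3, 105.4, 137.3 and 88.7 TPM in the 5 Control mice and at 202.2, 131.1, 67.1, 80.5 and 111.7 TPM in the 5 Control + rFibcd1 mice. It stood at 330.2, 256.5 and 330.7 TPM in the 3 LLC mice and at 102.9, 226.1, 282.2 and 110.6 TPM in the 4 LLC + rFibcd1 mice. The 3 LLC mice all lay above every Control mouse, whereas LLC + rFibcd1 replicates 2 and 3 lay above every Control mouse and replicates 1 and 4 lay within the Control range. H2-D1, which was 215.3, 238.7, 140.2, 167.9 and 129.2 TPM in Control, reached 390.4, 304.3 and 368.3 TPM in LLC and took values of 162.6, 305.6, 321.8 and 164.8 TPM in LLC + rFibcd1. In Control + rFibcd1 it read 280.4, 155.4, 107.6, 111.0 and 154.2 TPM. The same pattern across mice held for B2m, which is not an MHC-linked gene. Its levels were 556.5, 647.7, 418.6, 511.8 and 357.5 TPM in Control, 667.0, 505.8, 292.5, 330.8 and 447.7 TPM in Control + rFibcd1, 981.1, 872.0 and 1014 TPM in LLC, and 393.0, 751.9, 854.3 and 418.8 TPM in LLC + rFibcd1. H2-K1 and H2-D1 are close paralogs of each other and of the class Ib genes, and reads shared between them could have been split by the counting, so their separate levels are uncertain.

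Tap1, a chain of the peptide pump, was 5.14, 6.24, 4.37, 6.19 and 2.60 TPM in Control and 11.6, 11.1, 12.5 TPM in LLC. In LLC + rFibcd1 it was 3.82, 7.46, 12.8 and 3.24 TPM, with 2 values below the Control median and 1 above every LLC mouse. Tap2, the partner chain, was higher in level, at 11.7 to 16.2 TPM in Control (median 13.6), 9.32 to 16.7 TPM in Control + rFibcd1, 24.9, 18.9 and 21.3 TPM in LLC and 13.1, 18.5, 21.6 and 13.4 TPM in LLC + rFibcd1. Tapbp, which bridges the heavy chain to the transporter, was 32.3 to 42.1 TPM in Control (median 33.8), 26.6 to 46.3 TPM in Control + rFibcd1, 61.9, 47.2 and 58.5 TPM in LLC and 35.2, 51.9, 47.6 and 36.8 TPM in LLC + rFibcd1. For all 3 loading genes the LLC and Control mice did not overlap. Exons of Tapbp share 904 bases with the antisense gene Gm19412, which was at 0.632 TPM or less, and 149 bases with Zbtb22 on the same strand, at 9.82 to 14.3 TPM.

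The immunoproteasome subunits differed among themselves in level and in spread. Psmb8, which replaces the chymotrypsin-like subunit Psmb5, was 12.7, 15.9, 8.92, 10.9 and 6.81 TPM in Control, 5.75 to 15.5 TPM (median 7.99) in Control + rFibcd1, 24.9, 23.9 and 25.8 TPM in LLC, and 8.04, 17.2, 24.1 and 8.84 TPM in LLC + rFibcd1. Psmb9, which replaces Psmb6, was 4.88, 5.95, 3.48, 4.62 and 2.12 TPM in Control, 10.2, 9.81 and 9.82 TPM in LLC and 3.19, 6.04, 10.9 and 2.89 TPM in LLC + rFibcd1. For Psmb9 the highest of the 3 LLC mice exceeded the lowest by 1.05-fold, the narrowest span of any member in any group. Psmb10, which replaces Psmb7, was the most abundant of the 3 subunits and the least different between groups, at 22.7 to 29.1 TPM in Control, 23.5 ± 3.51 TPM (SD, n = 5) in Control + rFibcd1, 36.5, 33.1 and 38.9 TPM in LLC and 22.6, 34.4, 33.8 and 25.0 TPM in LLC + rFibcd1.

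Ubd was the least abundant member and the one with the widest range. It measured 1.11, 1.66, 0.135, 0.215 and 0.0445 TPM in Control, which corresponds to about 26, 39, 3, 5 and 1 reads. It measured 0.400, 0.0843, 0.215, 0.0402 and 0.130 TPM in Control + rFibcd1, or 9, 2, 5, 1 and 3 reads, so that the levels of 8 tumor-free mice rest on fewer than 10 reads each. In LLC it measured 4.99, 3.47 and 6.04 TPM (116, 81 and 136 reads), above every tumor-free mouse. In LLC + rFibcd1 it measured 0.126, 1.84, 9.09 and 0.126 TPM (3, 43, 218 and 3 reads), so that the highest level of all 17 mice and levels as low as those of Control occurred within that group.

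**Figure D1:**
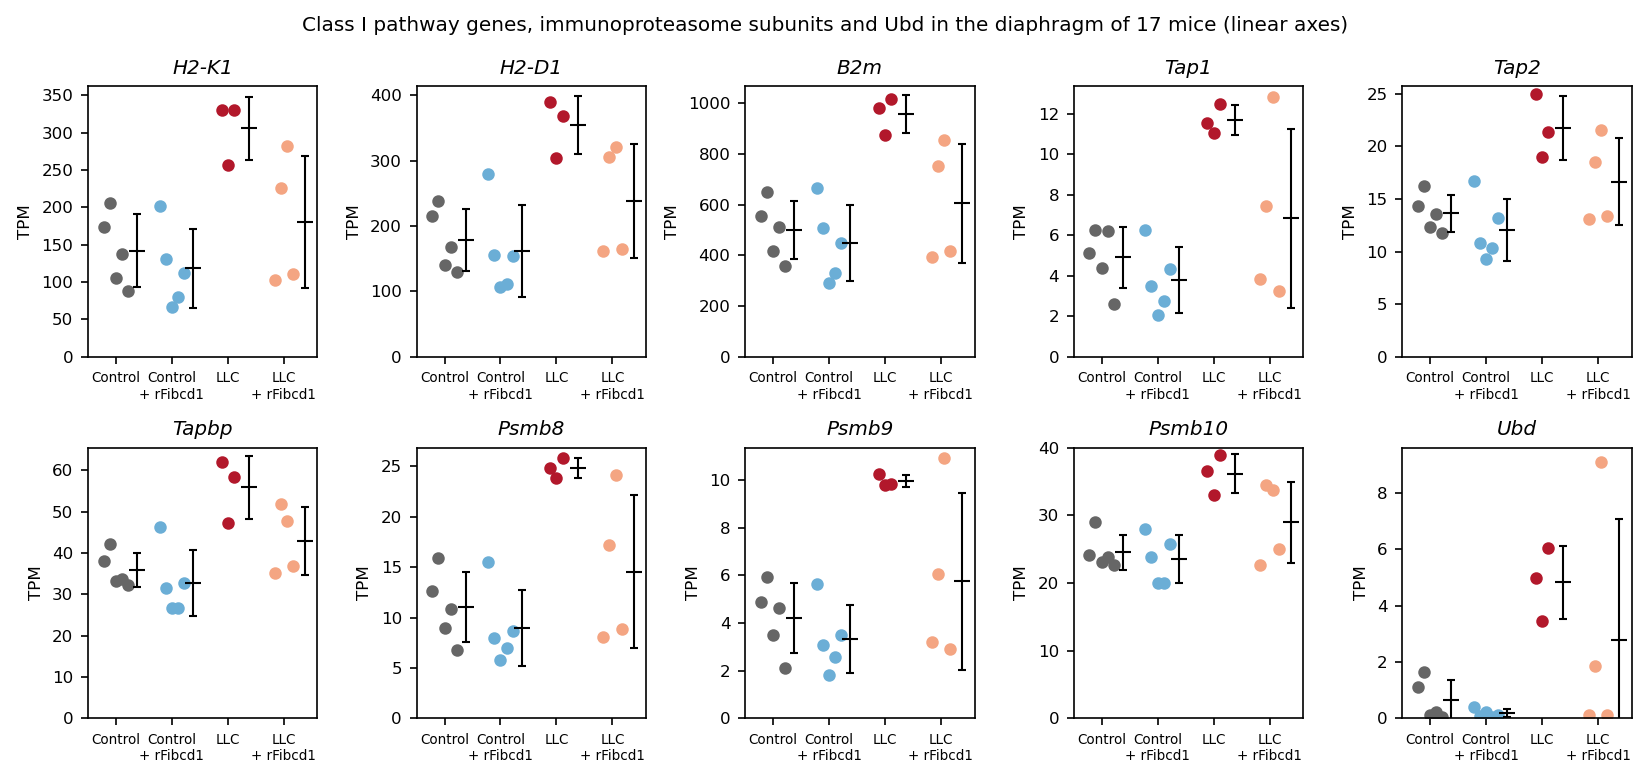
Level of each gene in TPM (vertical axes, linear, from 0) in 17 mice, 1 point a mouse in order of replicate number, in 4 groups, with the group mean and 1 SD as the bar beside the points. The 3 LLC mice lie above every Control mouse in all 10 panels. The 4 LLC + rFibcd1 mice spread from Control levels to LLC levels except for B2m, where the highest of them (854.3 TPM) lies below the lowest LLC mouse (872.0 TPM).

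Group means fell in 1 order for all 10 genes, with LLC highest, then LLC + rFibcd1, then Control, then Control + rFibcd1. That order is one of means, and no neighbours in it were shown to differ. Between LLC + rFibcd1 and LLC 9 of the 10 genes overlapped, where 9.30% of all genes were lower without overlap. In limma 0 of the 10 passed there, beside 0.113% of all genes called. LLC + rFibcd1 was not tested against Control. For each of the 10 genes the LLC + rFibcd1 and Control mice overlapped, with 2 of the 4 LLC + rFibcd1 mice above every Control mouse, and Control and Control + rFibcd1 overlapped throughout. Over all genes, 91.1% overlapped between LLC + rFibcd1 and Control, 40.5% had at least 2 LLC + rFibcd1 mice above every Control mouse, and 99.2% overlapped between Control and Control + rFibcd1. Leaving out Ubd, the highest mouse of LLC exceeded the lowest by 1.05-fold to 1.32-fold, compared with 1.47-fold to 3.96-fold in LLC + rFibcd1, 1.28-fold to 2.81-fold in Control and 1.40-fold to 3.09-fold in Control + rFibcd1. Such spans tend to grow with the number of mice, which was 3, 4, 5 and 5 in that order. The spans of all genes are not given beside them. Ubd spanned 72.3-fold in LLC + rFibcd1 and 1.74-fold in LLC.

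In the comparison of LLC with Control, which asks what the tumor did in mock-injected mice, all 10 genes rose. Fitted with limma on log2(TPM + 1) and adjusted over all 13305 genes, the adjusted p-values ran from 0.0139 (Psmb10) to 0.0321 (H2-K1). Ubd had the largest log2 change, 1.92 ± 0.55 (SE), which is 3.77-fold on the scale of TPM + 1, while the group means of 4.83 and 0.633 TPM differ 7.63-fold. Both depend on the low Control levels: with a pseudocount of 0.1 TPM the log2 change of Ubd was 3.36 ± 1.08, and without Control replicate 2 the means differ 12.8-fold. H2-K1 rose by 1.16 ± 0.39, Psmb8 by 1.15 ± 0.34, Tap1 by 1.15 ± 0.35, Psmb9 by 1.12 ± 0.35, H2-D1 by 1.02 ± 0.31 and B2m by 0.97 ± 0.29, each close to a doubling. Smaller changes were those of Tap2 (0.64 ± 0.18), Tapbp (0.62 ± 0.17) and Psmb10 (0.54 ± 0.14). The transporter chains therefore moved by unequal fitted amounts, with Tap1 at 2.21-fold and Tap2 at 1.55-fold, but the difference between members was not tested.

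These counts need the whole table beside them. In LLC against Control 29.7% of all genes tested were higher past the same threshold and 801 genes were lower, but with median-ratio scaling 15.6% were higher and 14.0% lower. The median gene was higher by 0.16, and the median of the 10 genes was 1.07. Non-overlap of the groups, seen in 10 of 10 members, was seen in the same direction in 33.6% of all genes. Relative to the median gene the members were higher by 0.38 (Psmb10) to 1.76 (Ubd). The calls also rest on few mice, for the members as for the whole table, where 35.8% of genes were called in either direction. Without LLC replicate 3 none of the 10 passed in limma (adjusted p 0.0778 to 0.116, all 10 at an unadjusted p under 0.05, as were 4467 of 13195 genes), and 0.182% of all genes were called. Without LLC replicate 1 only 1 of the 10 passed, beside 2254 of 13235 genes tested. Without Control replicate 5, the mouse with the lowest level of H2-K1, H2-D1 and B2m among the Control mice, 5 passed, beside 24.6% of all genes. The Dunn test named in the study's methods called 0 of the 10 after adjustment (adjusted p 0.118 to 0.139) and 0 of all genes, with 7 of the 10 and 4993 of all 13305 genes at an unadjusted p under 0.05.

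The same mice differed in markers of immune cells. In LLC against Control 10 of 10 B cell markers rose (median log2 change 2.40), as did 10 of 10 T cell markers (1.62), 5 of 5 neutrophil markers tested (1.64) 6 of 10 macrophage markers (0.96), 4 of 7 plasma cell markers (1.11), 4 of 6 dendritic cell markers tested (0.71) and the 1 NK cell marker tested, while 7 of 12 myofiber genes fell. None of the 6 adipocyte, 6 mesothelium or 6 fibroblast markers passed, with median log2 changes of 1.53, 0.67 and 0.20, and 2 of 8 endothelial markers rose (0.13). With the mean level of the 10 B cell markers in the model, none of the 10 members passed in limma for LLC against Control (log2 changes 0.01 to 0.55, adjusted p 0.471 to 0.977, 0 at an unadjusted p under 0.05). That model had 1680 of all 13305 genes at an unadjusted p under 0.05 in this comparison and called 7 (0.0526%). The B cell level itself separated these groups, at a mean log2(TPM + 1) of 4.11 to 4.47 in LLC and 0.28 to 2.98 in Control, so in this comparison it cannot be told apart from the tumor. In whole muscle, more cells of a type and more RNA per cell cannot be told apart, and the part of immune cells in the rise of the 10 genes was not tested. The summed T cell markers ran from 3.17 to 29.6 TPM in Control, 2.36 to 17.9 TPM in Control + rFibcd1, 45.4 to 72.1 TPM in LLC and 5.60 to 74.4 TPM in LLC + rFibcd1. The LLC + rFibcd1 mice with high class I genes, replicates 2 and 3, had summed B cell markers of 146.8 and 322.8 TPM, and replicates 1 and 4 had 20.7 and 25.0 TPM. Summed T cell markers (21.1 and 74.4 against 5.60 and 5.85 TPM) and macrophage markers (1164 and 749 against 507 and 477 TPM) split the same way. So did those of plasma, NK and dendritic cells and, by less, of endothelium, so the split does not set B cells apart. Markers of adipocytes, mesothelium and fibroblasts did not split this way. Neutrophil markers did not follow the split either, at 206.7 and 68.9 TPM in replicates 2 and 3, 89.7 and 55.1 TPM in replicates 1 and 4, and 45.6 to 106.3 TPM in LLC. Of the neutrophil markers 5 of 5 tested also rose in LLC + rFibcd1 against Control + rFibcd1, beside 7.02% of all genes called higher there.

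**Figure D2:**
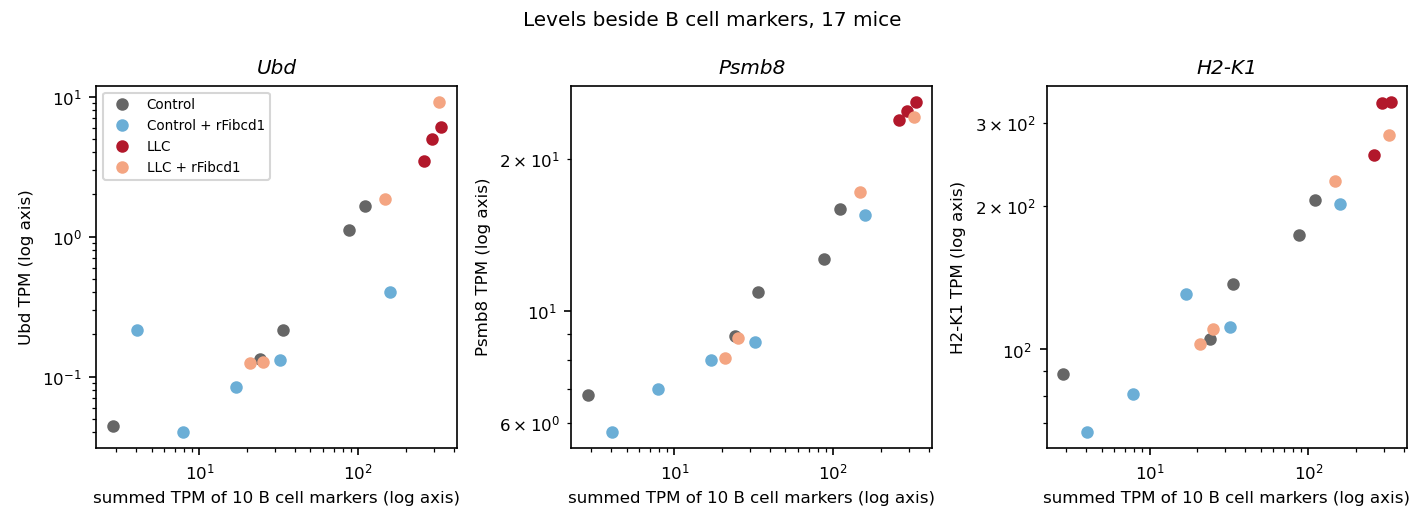
Level of Ubd, Psmb8 and H2-K1 (vertical axes, TPM, log scale) beside the summed TPM of 10 B cell markers (horizontal axes, log scale), 1 point a mouse, coloured by group. The 3 LLC mice and LLC + rFibcd1 replicate 3 sit at the upper right, with summed markers of 258.6 to 329.7 TPM, and mice of all groups follow 1 band in Psmb8 and H2-K1.

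Taking all 7 tumor-bearing against all 10 tumor-free mice, averaged over injection, the 10 genes all rose in limma, with log2 changes from 0.39 ± 0.10 (Psmb10, adjusted p = 0.0065) to 1.41 ± 0.37 (Ubd, adjusted p = 0.0090). Heavy chains and light chain rose by 0.80 ± 0.26 (H2-K1), 0.75 ± 0.21 (H2-D1) and 0.63 ± 0.20 (B2m). Loading genes rose by 0.82 ± 0.24 (Tap1), 0.51 ± 0.12 (Tap2) and 0.48 ± 0.11 (Tapbp), and Psmb8 and Psmb9 by 0.80 ± 0.23 and 0.78 ± 0.23. Here 38.8% of all genes were called higher (19.1% with median-ratio scaling, which called 17.1% lower), with the median gene at 0.13, and none of the 10 separated the tumor-bearing from the tumor-free mice completely, where 1.74% of all genes were higher in every tumor-bearing mouse. With the B cell markers in the model 0 of the 10 passed in limma, 2 of them at an unadjusted p under 0.05 beside 2968 of all 13305 genes, and 4.07% of all genes were called. The B cell level was at a mean log2(TPM + 1) of 1.275 to 4.47 in tumor-bearing and 0.28 to 3.37 in tumor-free mice. It moved with the tumor, so here too it cannot be told apart from the tumor. Leaving out any mouse in turn gave 8 to 10 calls among the 10, beside 31.4% to 49.8% of all genes.

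In rFibcd1-injected mice the tumor comparison gave smaller fitted changes. LLC + rFibcd1 against Control + rFibcd1 had log2 changes of 1.07 ± 0.51 for Ubd, 0.61 ± 0.32 for Tap1, 0.58 ± 0.31 for Psmb8, 0.58 ± 0.35 for H2-K1, 0.58 ± 0.29 for H2-D1, 0.55 ± 0.32 for Psmb9, 0.43 ± 0.17 for Tap2, 0.41 ± 0.27 for B2m, 0.39 ± 0.16 for Tapbp and 0.28 ± 0.13 for Psmb10. None of the 10 passed in limma (adjusted p 0.113 to 0.317), 3 were at an unadjusted p under 0.05 (Tap2, Tapbp and Psmb10) beside 28.5% of all genes. The Dunn test called 0, with 1 at an unadjusted p under 0.05 beside 2593 of all 13305 genes. Of all genes tested, 8.06% were called in this comparison and 7.43% were higher without overlap, which none of the 10 was. Without Control + rFibcd1 replicate 1, the mouse with the highest level of each of the 10 genes in that group and 158.1 TPM of B cell markers, 3 of the 10 passed, beside 21.8% of all genes. Without LLC + rFibcd1 replicate 3 the median log2 change of the 10 was 0.30 in place of 0.56, that of Ubd was 0.39, and 0 of the 10 were at an unadjusted p under 0.05, beside 2684 of 13259 genes, with 3.59% of all genes called. The 95% intervals for single genes ran from 0.00 to 0.55 for Psmb10 and from -0.01 to 2.16 for Ubd. For each of the 10 genes the change in mock-injected mice lay within its interval.

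The effect of rFibcd1 in tumor-bearing mice was read from LLC + rFibcd1 against LLC. It gave lower fitted levels for all 10 genes, from -0.33 ± 0.15 (Psmb10) to -1.22 ± 0.58 (Ubd, -2.30 ± 1.13 with a pseudocount of 0.1 TPM) on the log2 scale, with H2-K1 at -0.88 ± 0.40, Psmb8 at -0.86 ± 0.35, Tap1 at -0.86 ± 0.37, Psmb9 at -0.85 ± 0.36, B2m at -0.74 ± 0.30 and H2-D1 at -0.63 ± 0.33. Tap2 and Tapbp stood at -0.39 ± 0.19 and -0.38 ± 0.18. In limma 0 of 10 passed over all genes (adjusted p 0.204 to 0.242), against 0.113% of all genes called. The Dunn test called 0 of the 10 and 0 of all genes, with 0 of the 10 and 954 of all 13305 genes at an unadjusted p under 0.05. At an unadjusted p under 0.05, 7 of the 10 were lower (H2-K1, B2m, Tap1, Tapbp, Psmb8, Psmb9 and Psmb10), beside 17.3% of all genes. Only B2m did not overlap between the groups, its highest LLC + rFibcd1 mouse at 854.3 TPM and its lowest LLC mouse at 872.0 TPM, a state that 9.30% of all genes reached in that direction. The remaining 9 overlapped, and for Tap1, Psmb9 and Ubd the highest of all 17 mice was LLC + rFibcd1 replicate 3. Without LLC + rFibcd1 replicate 3 the median log2 change of the 10 was -1.04 in place of -0.80, with 0 passing (lowest adjusted p 0.0503) and 10 at an unadjusted p under 0.05, beside 3435 of 13259 genes. Without LLC replicate 3, without LLC replicate 1, or without LLC + rFibcd1 replicate 1 or 4, 0 of the 10 were at an unadjusted p under 0.05. The number of all genes at that level was then 1094 to 1855, in place of 3025. With the B cell markers in the model the log2 changes were -0.28 to 0.00, none at an unadjusted p under 0.05, beside 847 of all 13305 genes. The B cell level, as mean log2(TPM + 1), was 4.11 to 4.47 in LLC and 1.275, 3.31, 4.41 and 1.47 in LLC + rFibcd1. It moved with the members from mouse to mouse, so this model cannot tell them apart, and its part was not tested.

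In tumor-free mice rFibcd1 gave log2 changes of -0.06 ± 0.12 (Psmb10) to -0.38 ± 0.48 (Ubd). No member passed in limma (adjusted p 0.927 to 0.939), 0 were at an unadjusted p under 0.05 beside 4.39% of all genes, and 0% of all genes were called. The Dunn test gave 0 of either kind (322 of all 13305 genes at an unadjusted p under 0.05). The 95% intervals were -1.02 to 0.41 for H2-K1, -0.72 to 0.35 for B2m and -0.92 to 0.33 for Psmb8, so that levels lower by as much as a halving lie within some of them. The test of whether the tumor effect differed with rFibcd1, the interaction, gave -0.21 ± 0.25 (Tap2) to -0.84 ± 0.75 (Ubd), with 0 of 10 passing in limma (adjusted p 0.676 to 0.773) and 0% of all genes called, and with 0 of the 10 at an unadjusted p under 0.05 beside 8.58% of all genes. A tumor effect that passed in mock-injected mice and missed in rFibcd1-injected mice was thus not shown to differ between them.

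**Figure D3:**
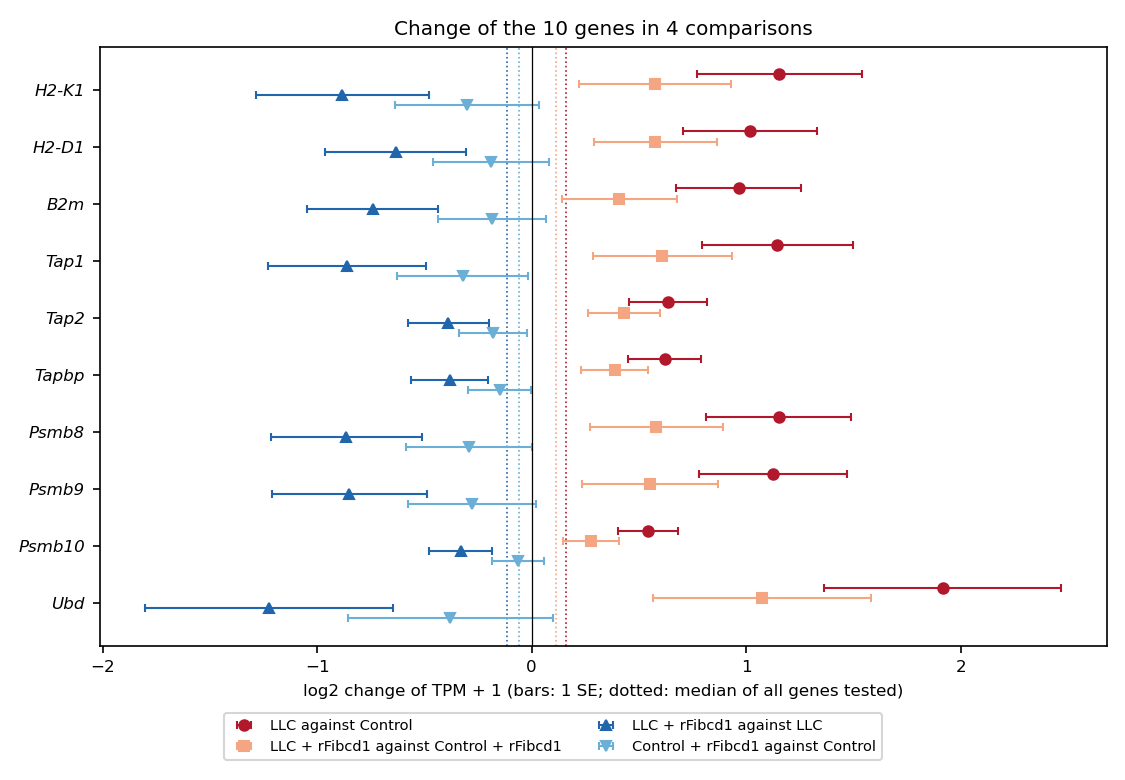
Fitted log2 change of TPM + 1 (horizontal axis, bars 1 SE) for each gene in 4 comparisons, with the median of all genes tested as dotted lines. Changes in LLC against Control run from 0.54 to 1.92, and those of LLC + rFibcd1 against LLC run from -0.33 to -1.22.

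Each immunoproteasome subunit was set against the constitutive subunit whose place it takes, since a ratio within a library does not depend on how that library was scaled. The Psmb8/Psmb5 ratio of TPM was 0.0658, 0.0839, 0.0473, 0.0615 and 0.0343 in Control and 0.132, 0.127 and 0.147 in LLC. In LLC + rFibcd1 it was 0.0424, 0.0853, 0.115 and 0.0449, and in Control + rFibcd1 its mean was 0.0478 ± 0.0199 (SD, n = 5). The LLC ratios were above every Control ratio, and 2 of the 4 LLC + rFibcd1 ratios were within the Control range. Mean Psmb9/Psmb6 was 0.0418 ± 0.0142 in Control, 0.0333 ± 0.0143 in Control + rFibcd1, 0.0979 ± 0.0023 in LLC and 0.0552 ± 0.0361 in LLC + rFibcd1. Mean Psmb10/Psmb7 was 0.290 ± 0.0330, 0.284 ± 0.0472, 0.446 ± 0.0536 and 0.341 ± 0.0770 in the same order.

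In LLC against Control the log2 ratios were higher by 1.27 (Psmb8/Psmb5), 1.31 (Psmb9/Psmb6) and 0.62 (Psmb10/Psmb7), each with a two-sided exact permutation p = 0.0357, the smallest that 3 against 5 mice allow. The immunoproteasome subunits alone already lay without overlap between these groups, as did 33.6% of all genes in the same direction. The constitutive subunits varied little between mice, so these ratio tests restate that separation and are not separate support. In tumor-bearing against tumor-free mice they were higher by 0.83 (exact p = 0.0195), 0.89 (exact p = 0.0249) and 0.41 (exact p = 0.0089), and all 6 tests had an adjusted p = 0.0357 over the 6. Of the 7 tumor-bearing mice, 5, 4 and 5 had a ratio above every tumor-free mouse. The Psmb9/Psmb6 difference in tumor-bearing mice missed the threshold without LLC replicate 1, 2 or 3 or without LLC + rFibcd1 replicate 3 (exact p 0.0522 to 0.0549). Between LLC + rFibcd1 and LLC the 4 against 3 mice cannot go below an exact p of 0.0571, and the ratios are given there as values.

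**Figure D4:**
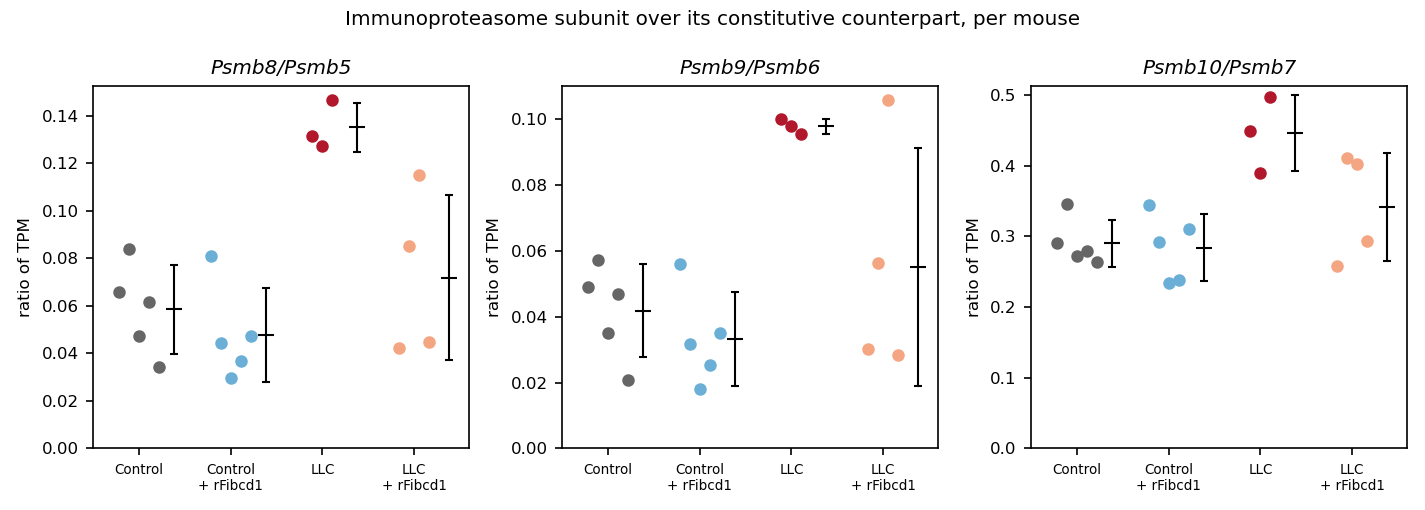
Ratio of TPM of each immunoproteasome subunit to its constitutive counterpart (vertical axes, linear, from 0), 1 point a mouse in 4 groups, with the group mean and 1 SD beside the points. LLC mice lie at 0.127 to 0.147 for Psmb8/Psmb5, above the Control mice at 0.0343 to 0.0839.

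The constitutive subunits themselves showed no call in LLC against Control by limma on the deposited scale. Psmb5, the chymotrypsin-like subunit, was 189.2 ± 7.97 TPM (SD) in 5 Control and 184.2 ± 7.06 TPM in 3 LLC mice (log2 change -0.04 ± 0.04, adjusted p = 0.511), Psmb6 100.6 ± 2.30 and 101.7 ± 1.49 TPM (0.02 ± 0.03, adjusted p = 0.668), and Psmb7 84.6 ± 1.25 and 81.3 ± 3.30 TPM (-0.06 ± 0.03, adjusted p = 0.170). That call depended on scaling. With median-ratio scaling, which sets the median gene to about 0, Psmb5 and Psmb7 were lower by limma (log2 change -0.22, adjusted p = 0.0385, and -0.24, adjusted p = 0.0396) and Psmb6 stood at -0.17 (adjusted p = 0.0533). Rescaled without mitochondrially encoded genes, Psmb5 stood at -0.15 (adjusted p = 0.0448), Psmb7 at -0.17 (adjusted p = 0.0331) and Psmb6 at -0.09 (adjusted p = 0.0802). Under both rescalings all 10 members still rose in LLC against Control, by 0.36 to 1.78 and by 0.44 to 2.30.

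Other genes of the pathway came from lists drawn up by function, and their counts stand beside the 29.7% of all genes that rose in LLC against Control. Of 11 other subunits of the 20S core, 5 rose in LLC against Control and 6 did not pass, by small amounts on the deposited scale (median log2 change 0.09, highest Psmb1 at 0.19 ± 0.06, adjusted p = 0.0211 in limma). On that scale the median gene rose by 0.16, more than this list's median. Rises this small can depend on scaling, and the list is not given here under the rescalings. Of 9 activator and assembly genes 4 rose, among them Psme2, a subunit of the interferon-inducible PA28 activator, at 0.43 ± 0.15 (adjusted p = 0.0368), while its partner Psme1 was 0.16 ± 0.10 (adjusted p = 0.219). Of 10 accessory and assembly genes of the class I pathway 5 rose, including the chaperones Calr (0.58 ± 0.14, adjusted p = 0.0128) and Pdia3 (0.67 ± 0.18, adjusted p = 0.0151) and the translocon subunit Sec61a1 (0.69 ± 0.19, adjusted p = 0.0152). Of 12 class Ib genes tested 7 rose, led by H2-Q7 at 1.68 ± 0.63 (adjusted p = 0.0481), whose close paralog H2-Q6 was 1.57 ± 0.61 (adjusted p = 0.0554). Of 6 genes for enzymes and partners of the Ubd protein 2 rose, Ube2z, an E2 enzyme that accepts the modifier (0.21 ± 0.07, adjusted p = 0.0289), and Hdac6 (0.37 ± 0.11, adjusted p = 0.0216), whereas Uba6, its E1 enzyme, was 0.18 ± 0.12 (adjusted p = 0.234). None of these genes passed in the lower direction.

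Of 19 regulators of class I genes 12 rose in LLC against Control and none fell. Nlrc5, the transactivator of class I promoters, was 1.88 ± 0.620 TPM (SD) in Control, 1.41 ± 0.699 in Control + rFibcd1, 4.43 ± 0.497 in LLC and 2.48 ± 1.99 in LLC + rFibcd1 (log2 change in LLC against Control 0.94 ± 0.33 (SE), adjusted p = 0.0367 in limma). Irf1, an interferon-inducible transcription factor, rose by 0.55 ± 0.18 (adjusted p = 0.0271). Ciita, the transactivator of class II genes, rose by 1.67 ± 0.41 (adjusted p = 0.0128) and Irf8, a regulator of myeloid and B cells, by 1.39 ± 0.40 (adjusted p = 0.0181). In the LLC + rFibcd1 mice Nlrc5 followed the members, at 0.979, 2.61, 5.25 and 1.09 TPM.

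Of 8 ligands, receptors, kinases and inhibitors of interferon gamma and tumor necrosis factor signaling tested in LLC against Control 4 rose, with a median log2 change of 0.43. Ifng, the gene of interferon gamma, was at 0.232 TPM or less in every mouse, below the level required for testing, with 0.0991 to 0.232 TPM in LLC and 0 to 0.131 TPM in Control. Tnf was 1.89 ± 0.521 TPM (SD, n = 3) in LLC and 0.731 ± 0.337 TPM (n = 5) in Control, a log2 change of 0.75 ± 0.28 (SE) that missed the threshold in limma (adjusted p = 0.0506), while its receptors Tnfrsf1b and Tnfrsf1a rose by 0.83 ± 0.24 and 0.51 ± 0.13. Of 12 other interferon gamma induced genes tested only Cxcl10 rose, by 0.68 ± 0.23 (adjusted p = 0.0342), with Cxcl9 at 0.54 ± 0.27 (adjusted p = 0.127) and Gbp2 at 0.47 ± 0.20 (adjusted p = 0.0845), and the list's median log2 change was 0.27. Of 9 type I interferon induced genes 5 rose, among them Oas1a (0.91 ± 0.22, adjusted p = 0.0128) and Irf7 (0.77 ± 0.14, adjusted p = 0.0090). In LLC + rFibcd1 against LLC none of the genes of any of these lists passed in limma or was called by the Dunn test. At an unadjusted p under 0.05 in limma were 9 of the 19 regulators, 5 of 12 class Ib genes, 4 of 8 signaling genes, 4 of the 12 interferon gamma induced genes and 3 of 10 accessory genes. So were 2 of 9 type I interferon induced genes, 1 of 9 activator and assembly genes, 1 of 3 constitutive catalytic subunits, 0 of 11 other 20S subunits and 0 of 6 Ubd partners, beside 22.7% of all genes.

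**Figure D5:**
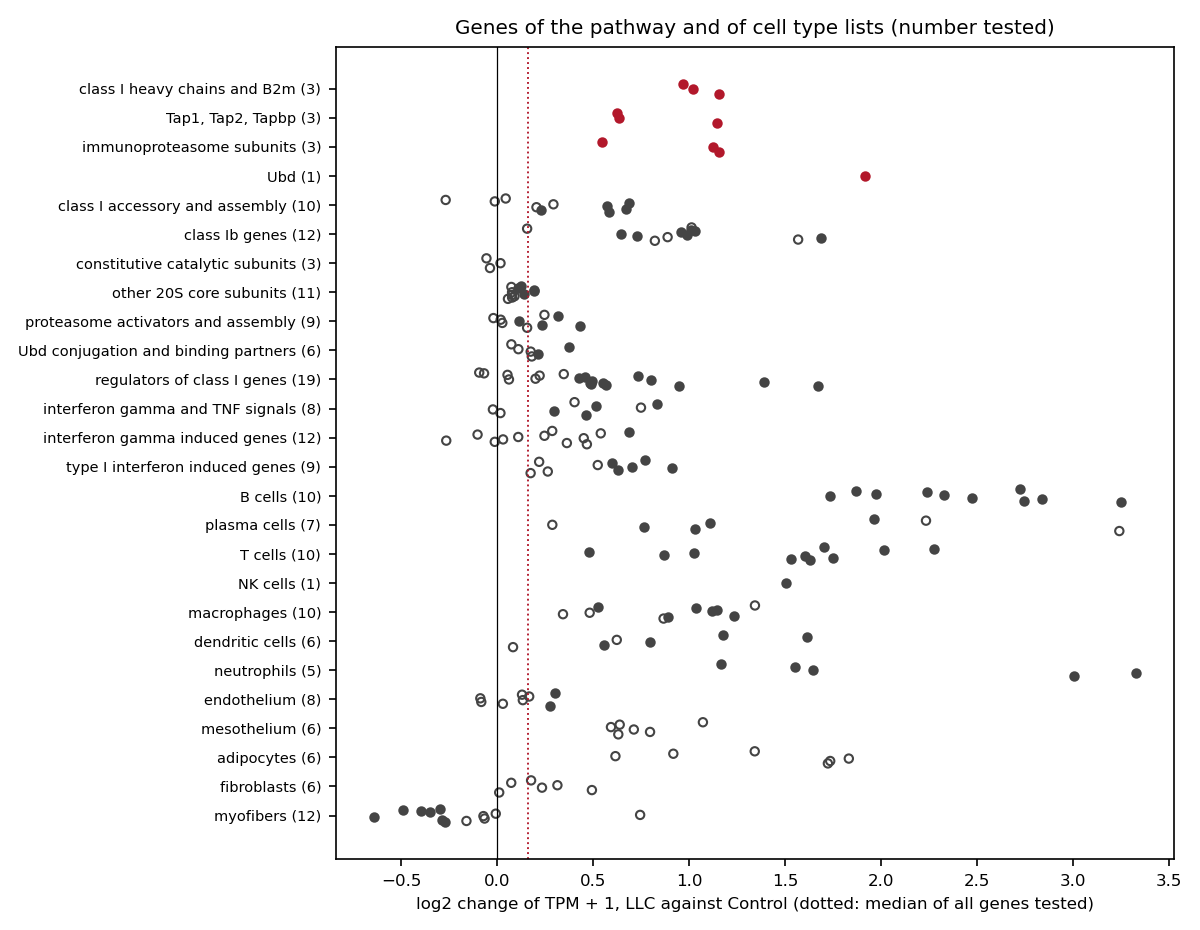
Fitted log2 change of TPM + 1 in LLC against Control (horizontal axis) for each gene of each list, filled where the adjusted p was under 0.05 and open where it was not, with the median of all genes tested dotted. The 10 members (red) lie at 0.54 to 1.92, the 3 constitutive catalytic subunits near 0 and the B cell markers at 1.74 to 3.25.

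The genes whose mouse-to-mouse pattern was most like that of the members were found from deviations from the group means on the log2(TPM + 1) scale over the 17 mice, among all genes tested. For Ubd they were Glycam1 (Pearson r 0.99), Il4i1 (0.96), Ccr6 (0.96), Ell3 (0.95) and Cd27 (0.95). Glycam1 encodes a mucin-like ligand of L-selectin made by the high endothelial venules of lymph nodes, and Ccr6 and Cd27 encode receptors of lymphocytes. Glycam1 was 7.63 ± 2.32 TPM (SD, n = 3) in LLC and 0.686 ± 1.18 TPM (n = 5) in Control, and in LLC + rFibcd1 it ranged from 0 to 13.8 TPM. Its highest level was in LLC + rFibcd1 replicate 3, which also had the highest Ubd, 9.09 TPM. The r values for Ubd thus lean heavily on that mouse, and r without it was not computed. For the mean of the other 9 members the nearest were Cd79b, the B cell receptor subunit (0.99), Lat2 (0.99), Coro1a (0.98), Zc3h12d (0.98) and Tmem123 (0.98). Cd79b, which is also in the B cell list, was 72.2 ± 9.20 TPM in LLC, 13.8 ± 11.6 TPM in Control, 11.7 ± 16.8 TPM in Control + rFibcd1 and 31.3 ± 33.0 TPM in LLC + rFibcd1. These likenesses describe 17 libraries that share their tissue and counting, and they were given no test.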

How the data were processed

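RNA-seq was performed on diaphragm muscle of 17 mice, grouped by GEO's labels. The authors aligned reads to GRCm38 (mm10) with CLC Genomics Workbench and deposited TPM per gene symbol, which sum to 1000000 in a library. The labels name a stranded TruSeq kit and a HiSeq instrument, whereas the study's methods name an unstranded TruSeq kit and a NovaSeq. The annotation release and the strand setting of the counting are not given in the sources used here. Read depth was recovered from the steps between low TPM values and GENCODE exon lengths (79.6% to 82.0% of low values lay within 0.02 of a whole read, 4% for random values), and read numbers are estimates. A gene was tested where 3 or more mice reached 1 TPM, with limma 3.58.1 in R 4.3.3 on log2(TPM + 1), in one fit of 4 groups with 13 residual degrees of freedom and a mean-dependent prior, two-sided, with Benjamini-Hochberg adjustment over 13305 genes and a threshold of 0.05. The study's Kruskal-Wallis and Dunn tests were kept as an alternative. Subunit ratios were compared with exact permutation tests in SciPy 1.17.1. The fit was tested on simulated data. Named genes were the 10 members, 10 related genes fixed by name (Psmb5, Psmb6, Psmb7, Psme1, Psme2, Nlrc5, Irf1, Ifng, Tnf and 1 that is not reported here), at most 3 genes with the largest change in each list, and the 5 genes most like Ubd or the other members. The members and lists were chosen with earlier results of these data known. The labels call the mice biological replicates.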

Additional observations from a re-analysis of the deposited data

Results flagged for a closer look

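In each group of 4 or 5 mice the highest and lowest values of the 10 genes were set against the range of the group, in 39 checks of members and subunit ratios, and 2 stood apart by Dixon's criterion, where chance gives about 1 in 20. Psmb10 in Control replicate 2 was 29.07 TPM, with a gap to the nearest mouse of 0.776 of the range of the group. H2-D1 in Control + rFibcd1 replicate 1 was 280.4 TPM, with a gap of 0.723 of the range. Both mice had the highest summed markers of their groups for B cells (110.9 and 158.1 TPM), macrophages (689.3 and 1891 TPM), T cells (29.6 and 17.9 TPM) and mesothelium (171.6 and 168.4 TPM), and also for plasma, dendritic and NK cells, and the part of these in the values was not tested. No member passed the test of a difference between the tumor effects with and without rFibcd1.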

How the results depend on the processing

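With 3 to 5 mice a group, and 1 to 39 Ubd reads in the tumor-free mice, the calls depend on single mice. All 10 calls in both tumor comparisons held with a pseudocount of 0.1 TPM, without a filter, under both rescalings and, for LLC against Control, with only those groups in the fit, where 21.4% to 44.1% of all genes were called. With a filter of 5 TPM, 9 were tested and called, since Ubd was left out, beside 39.4% and 49.8% of all genes. With the B cell markers as a covariate 0 of 10 passed in either comparison (0.0526% and 4.07% of all genes). That level itself rose with the tumor and cannot be told apart from it. The Dunn test called 0 of 10 and 0 of all genes for LLC against Control. Replicate numbers did not pair the mice (4 of 22 same-numbered pairs had r over 0.1, and 0 of 17 mice correlated best with their own number). The replicate block left 0 of 10 calls for LLC against Control, 5 of 10 for tumor-bearing against tumor-free mice, and moved all genes called from 4759 to 5 and from 5963 to 3782 (28.4%). Leaving out each mouse gave 0 to 10 calls for LLC against Control (0.182% to 39.5% of all genes), 8 to 10 for tumor-bearing mice (31.4% to 49.8%), and 0 to 3 for LLC + rFibcd1 against Control + rFibcd1 (3.59% to 21.8%), where 3 came without Control + rFibcd1 replicate 1. For the ratios in LLC against Control, leaving out any mouse gave 1.09 to 1.42 (Psmb8/Psmb5), 1.08 to 1.44 (Psmb9/Psmb6) and 0.54 to 0.71 (Psmb10/Psmb7), none able to reach 0.05. Psmb9/Psmb6 in tumor-bearing mice ran from 0.77 to 1.09. Differences of medians were 1.10, 1.06 and 0.69 (exact p = 0.107 each). Directions reversed with the B cell markers for H2-D1 in LLC + rFibcd1 against LLC (0.0023) and for the interaction of H2-K1 (0.0262), H2-D1 (0.0459), Tap1 (0.0034), Tap2 (0.0675) and Tapbp (0.0069), and with median-ratio scaling for Psmb10 in Control + rFibcd1 against Control (0.0079). None of those had passed, and the cause was not tested. Of the other values of single members, 1427 kept direction and side of the threshold, 75 lost a call and 3 gained one.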
